A study of Mus musculus with 8 samples.

Results

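The circadian clock genes of immortalized mouse pancreatic stellate cells (PSCs), which are fibroblast-like and reside in the pancreas, were followed across 3 culture media. The members were the period genes Per1, Per2 and Per3, the cryptochromes Cry1 and Cry2, the nuclear receptor genes Nr1d1 and Nr1d2, the transcription factor genes Dbp and Tef, and Clock. They were chosen by gene symbol, and 9 of these 10 genes had a row among the 12160 genes of the count table used here. Clock was not analysed here. Each culture, embedded in Matrigel, received growth medium for its first 4 days and 1 of 3 media for the next 4 days. In 3 libraries the latter was medium conditioned by KPC organoids carrying an shRNA against Brca2 (shBrca2-CM), and in 3 libraries medium conditioned by KPC organoids with a non-targeting shRNA (shControl-CM). KPC organoids are 3D cultures of mouse pancreatic tumour cells; their own RNA, in which Brca2 was targeted, was not measured in these libraries. The 2 control libraries are titled DMEM, while the label for treatment gives the PSCs' own conditioned medium, so the neutral name control medium is used. The paper's figure legends state that control cells stayed in growth medium, so whether the control cultures had a switch of medium is not settled. Per the study's methods the libraries came from separate culture domes of 1 immortalized line, and each shRNA was carried by a transduced and selected organoid culture. The organoid media were conditioned with less serum than the PSC growth medium holds. Serum and organoid products therefore cannot be told apart in a comparison with control medium. The hour of harvest is not given in the sources used here.

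The mammalian clock is a feedback loop of transcription that runs in most cells, fibroblasts included. CLOCK and BMAL1 (encoded by Arntl) bind E-boxes and switch on the period and cryptochrome genes, whose proteins return to the nucleus and repress CLOCK and BMAL1. A second loop is made by the REV-ERB receptors, encoded by Nr1d1 and Nr1d2, which repress Arntl through elements that they share with the ROR receptors. DBP and TEF activate genes through D-boxes, which NFIL3 represses. Fibroblast cultures keep such rhythms, and cells of a culture drift apart in phase unless a shared signal, such as a change of serum, sets them together.

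Promoter sequences are shown for the 3 members whose expression passed the test in any comparison below, Per1, Cry1 and Dbp. They are the 250 bases before a transcript start in RefSeq (GRCm38.p6, the assembly also called mm10, which the submitters' notes name), on the strand of the gene, with motif matches in capitals. Searched were the E-box (CACGTG, its own reverse complement), the D-box (TTATGTAA or TTACGTAA) and the half-site of the ROR element (AGGTCA), on both strands. These motifs did not overlap each other in the windows shown.
Per1, chr11:69098699-69098948, plus strand, the first of 2 starts: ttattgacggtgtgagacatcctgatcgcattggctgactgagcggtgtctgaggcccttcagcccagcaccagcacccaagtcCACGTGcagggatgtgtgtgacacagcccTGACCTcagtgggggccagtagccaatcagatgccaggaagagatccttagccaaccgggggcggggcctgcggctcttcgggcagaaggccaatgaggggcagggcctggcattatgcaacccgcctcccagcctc
Cry1, chr10:85185055-85185304, minus strand: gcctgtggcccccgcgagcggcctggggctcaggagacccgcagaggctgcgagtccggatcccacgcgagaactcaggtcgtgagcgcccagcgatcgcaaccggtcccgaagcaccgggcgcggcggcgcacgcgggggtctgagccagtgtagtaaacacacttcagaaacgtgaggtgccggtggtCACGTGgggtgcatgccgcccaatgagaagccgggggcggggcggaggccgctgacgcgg
Dbp, chr7:45704997-45705246, plus strand: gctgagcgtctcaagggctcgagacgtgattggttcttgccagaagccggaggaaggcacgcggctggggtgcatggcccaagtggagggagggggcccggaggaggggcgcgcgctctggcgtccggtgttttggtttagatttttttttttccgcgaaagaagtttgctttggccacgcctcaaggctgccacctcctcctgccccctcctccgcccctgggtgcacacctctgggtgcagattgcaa
The Per1 window held an E-box that began 166 bases before the start and, 137 bases before it, a ROR half-site read on the opposite strand. The Cry1 window held an E-box at 60 bases before the start. None of the searched letters was in the Dbp window, nor in that of the other Per1 start.

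Promoter windows were available for 8 of the 9 members, 10 windows in all, and 6 windows held at least 1 match. An E-box was in 4 windows (those of Per1 and Cry1 named above and both starts of Tef), whereas 6.02% of the 32851 windows of all genes hold one. The Per3 window held the only D-box matches, a pair at 205 and 158 bases before the start, against 0.931% of all windows. A ROR half-site was found for Per1 and Nr1d2, and in 14% of all windows. A match describes the letters only and is not evidence of binding in these cells.

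**Figure D1:**
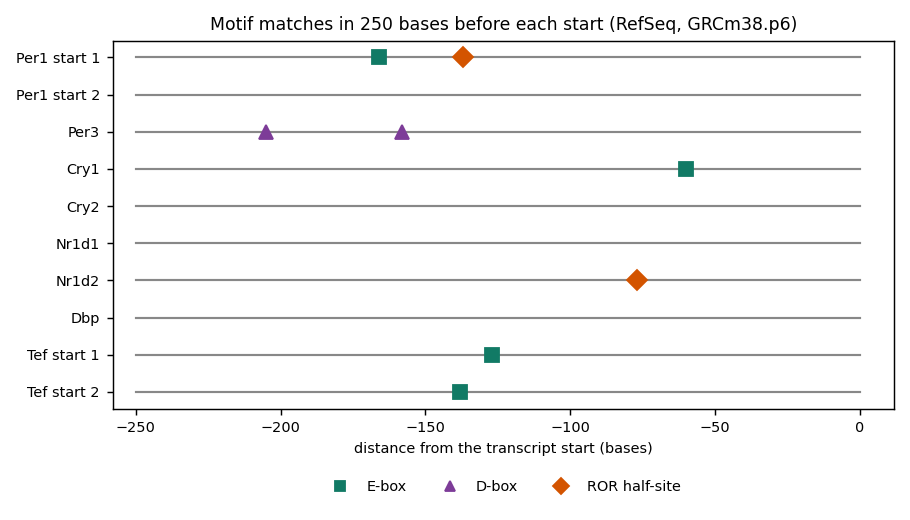
Positions of motif matches (symbols) in the 250 bases before each RefSeq transcript start of 8 clock genes, with distance from the start in bases on the horizontal axis and 1 row per start. Per1, Cry1 and Tef each have an E-box in at least 1 window, Per3 has a pair of D-boxes, and the windows of Cry2, Nr1d1 and Dbp have no match.

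Libraries were of the 3′ ends of RNA (MARS-seq), and the deposited values were raw counts of reads per gene. Libraries totalled 655996 to 1095534 counts (shBrca2-CM), 1093609 to 1624392 (shControl-CM) and 4623846 to 5476988 (control medium). A floor of 3 counts thus stood at up to 4.34 CPM (counts scaled to a common library size) with shBrca2-CM and at up to 0.645 CPM in control medium, so Per2, Per3 and Nr1d2 were measured poorly after conditioned medium. Floors and count intervals cover counting error only. All 10 fibroblast and stellate markers were counted in every group (summed level 3233 to 3403 CPM with shBrca2-CM, 4202 to 4748 CPM with shControl-CM and 5444 to 6512 CPM in control medium). Single markers went in opposite directions within that sum: Vim was at 3396 to 4115 CPM in control medium and at most 749 CPM elsewhere, while Dcn was at most 105 CPM in control medium and at least 910 CPM elsewhere. Of 8 epithelial markers that organoid carry-over could bring, 3 (Krt18, Krt19 and Muc1) were analysed here, with a summed level of 59.3 to 94.1 CPM with shBrca2-CM, 57.7 to 70.6 CPM with shControl-CM and 37.0 to 41.7 CPM in control medium. Within it Krt18 and Muc1 were higher in every conditioned medium library, and Krt19 was lower (24.3 to 25.4 CPM in control medium, 2.04 to 3.87 CPM with shControl-CM and 5.79 to 16.2 CPM with shBrca2-CM). Of 4 immune markers, 2 (Cd68 and Lyz2) were analysed, with 13.0 to 23.1, 16.7 to 22.4 and 7.52 to 9.04 CPM, and of 3 endothelial markers 1 (Kdr), which was at 0 in all shBrca2-CM libraries and at most 2.43 CPM elsewhere. The part of these levels in the results below was not tested. In bulk RNA, fewer cells of a type and less RNA per cell cannot be told apart.

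Against control medium, the clearest changes were decreases of Cry1 and Dbp, which were found with both conditioned media, while Per1 rose with shControl-CM. Called genes had to pass 3 thresholds: an adjusted p under 0.1 in edgeR's quasi-likelihood test, a change of more than 0.5 on the log2 scale in either direction, and more than 5 normalized counts on average. With shControl-CM, 3 of 9 members were called, 1 higher (Per1) and 2 lower (Cry1 and Dbp). In that comparison 37.1% of all 12086 genes tested were called, 18.2% higher and 18.9% lower. With shBrca2-CM, 2 of 9 members were called, both lower (Cry1 and Dbp), where 37.8% of 12049 genes were called, 18.6% higher and 19.2% lower. At an unadjusted p under 0.05 stood 44% and 46.9% of all genes in these comparisons. Neither share of called members was above that of all genes. The median log2 fold change of the 9 members was -0.30 with shControl-CM and -0.43 with shBrca2-CM, beside -0.10 and -0.05 over all genes tested. Values of 4 members did not overlap between shControl-CM and control medium, 1 of them higher (Per1) and 3 lower (Per2, Cry1 and Dbp), where 60% of all genes did not overlap, 26.7% higher and 33.3% lower. Between shBrca2-CM and control medium 4 members did not overlap, all lower (Cry1, Nr1d1, Dbp and Tef), where 57.4% of all genes did not overlap, 26.3% higher and 31.1% lower. Both comparisons used the same 2 control libraries, so their results are not independent of each other. Without a series of harvest times, a shift of phase and a change of mean level cannot be told apart for rhythmic genes.

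**Figure D2:**
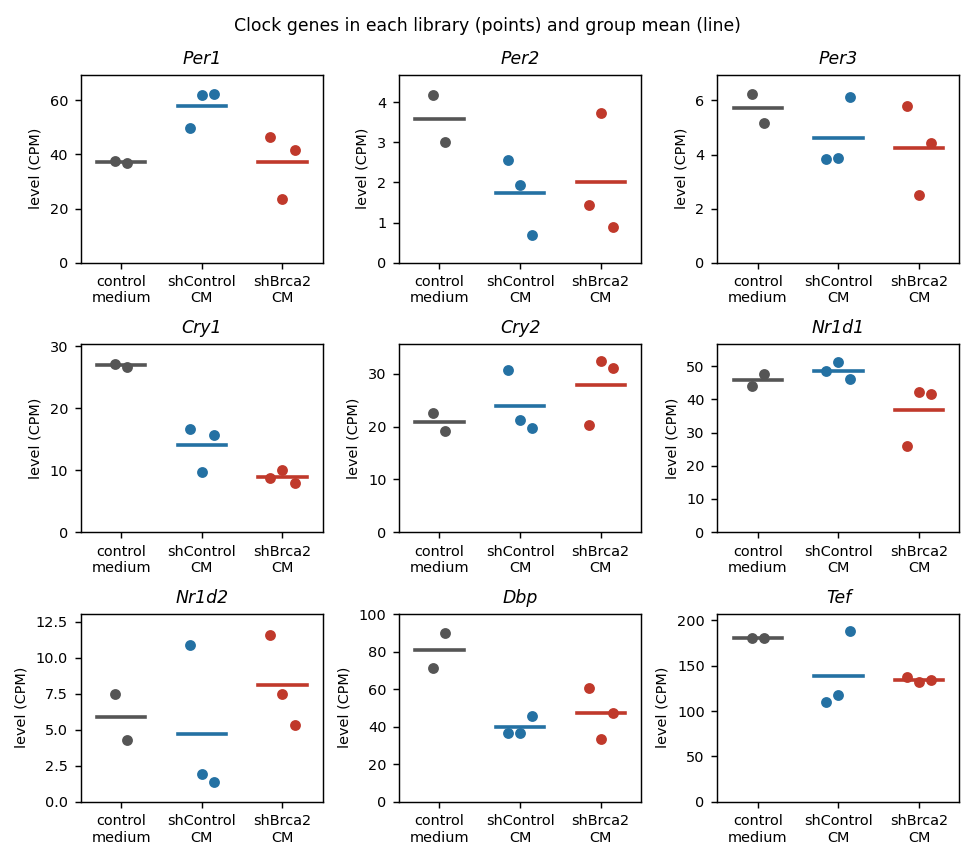
Level of each of the 9 clock genes in CPM (vertical axes start at 0) in every library (points) of the 3 groups on the horizontal axis, with the group mean as a line. Cry1 and Dbp are highest in both control libraries, Per1 is highest in the shControl-CM libraries, and Nr1d2 has 1 high shControl-CM library at 10.9 CPM.

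Among the period genes, which encode the repressors PER1, PER2 and PER3, Per1 (chr11:69095108-69109965) was the best counted. Its level was 37.7 and 36.8 CPM in control medium, 50.0, 61.8 and 62.5 CPM with shControl-CM, and 46.3, 23.6 and 41.7 CPM with shBrca2-CM. All shControl-CM libraries were above all others, whereas the shBrca2-CM libraries lay on both sides of the control libraries. Per1 thus rose by 0.63 on the log2 scale with shControl-CM (1.55-fold, standard error 0.20, edgeR adjusted p = 0.0351). The call was lost without shControl-CM replicate 2 (0.58 on the log2 scale, edgeR adjusted p = 0.119), without control medium replicate 1 (0.67, 0.163) or replicate 2 (0.61, 0.181), and in libraries thinned to the smallest total (0.51, 0.236). The size of the difference changed little in these fits, in which 28.6%, 16.4%, 19.3% and 28.7% of all genes were called. With shBrca2-CM the estimate was 0.00 (95% confidence interval -0.43 to 0.44, edgeR adjusted p = 0.994).

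Per2 (chr1:91415977-91459351) was counted 24 and 14 times in control medium, 4, 2 and 1 times with shControl-CM, and 1, 3 and 1 times with shBrca2-CM. These counts are at or near the floor after either conditioned medium. The ratio of summed counts per library size to control medium was 0.471 with shControl-CM (95% counting interval 0.178 to 1.07) and 0.522 with shBrca2-CM (0.160 to 1.33), and neither comparison was called (edgeR adjusted p = 0.204 and 0.314). Per3 (chr4:150997018-151044707), whose promoter has a pair of D-boxes, was at 6.26 and 5.16 CPM in control medium, 3.84, 3.87 and 6.11 CPM with shControl-CM, and 5.79, 2.49 and 4.44 CPM with shBrca2-CM. The 3 groups overlapped for Per3. Its differences to control medium on the log2 scale were -0.30 (shControl-CM, 95% confidence interval -1.23 to 0.62) and -0.45 (shBrca2-CM, -1.44 to 0.55), so a change of either sign was within the error. In the RefSeq annotation Per2 overlaps Gm35591 and Per3 overlaps Uts2, and how the counting treated such reads is not given in the sources used here.

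The cryptochromes repress CLOCK and BMAL1 together with the period proteins, and here Cry1 was called and Cry2 was not, a difference between the genes that was not tested. Cry1 (chr10:85131700-85185054) was at 27.1 and 26.7 CPM in control medium, 16.7, 9.66 and 15.6 CPM with shControl-CM, and 8.68, 9.96 and 7.99 CPM with shBrca2-CM. Every conditioned medium library was below both control libraries, and shControl-CM replicate 2 lay within the range of the shBrca2-CM libraries. Cry1 fell by 1.61 on the log2 scale with shBrca2-CM (3.05-fold, standard error 0.30, edgeR adjusted p = 1.75e-05), a call kept in all 12 alternative fits. With shControl-CM it fell by 0.92 (1.89-fold, standard error 0.28, edgeR adjusted p = 0.0326). The latter call was lost in the same 4 fits as that of Per1, where Cry1 was at -0.74 without shControl-CM replicate 2 (edgeR adjusted p = 0.112), -0.90 and -0.94 without control medium replicate 1 or 2 (0.201 and 0.170) and -0.79 in thinned libraries (0.193). Between the conditioned media Cry1 was -0.66 on the log2 scale (95% confidence interval -1.45 to 0.14, edgeR adjusted p = 0.483), so the order of its 2 conditioned medium levels was not resolved.

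Cry2 (chr2:92403646-92434085) was at 22.6 and 19.1 CPM in control medium, 30.8, 21.3 and 19.7 CPM with shControl-CM, and 20.3, 32.4 and 31.1 CPM with shBrca2-CM. Its groups overlapped, and no comparison of Cry2 was called. Against control medium the log2 differences were 0.20 (shControl-CM, 95% confidence interval -0.43 to 0.82) and 0.44 (shBrca2-CM, -0.05 to 0.93, edgeR adjusted p = 0.147). Without shBrca2-CM replicate 1, the lowest of that group, Cry2 would be called higher (0.59, edgeR adjusted p = 0.0807). The lncRNA gene D930015M05Rik lies within Cry2 in the annotation.

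The REV-ERB receptors, which repress Arntl, showed no called change. Nr1d1 (chr11:98767932-98775377) was at 44.0 and 47.5 CPM in control medium, 48.7, 51.2 and 46.2 CPM with shControl-CM, and 26.0, 42.3 and 41.7 CPM with shBrca2-CM. All shBrca2-CM libraries were below all others, most of all replicate 1. The difference to control medium was -0.28 on the log2 scale (95% confidence interval -0.70 to 0.13, edgeR adjusted p = 0.288), and with shControl-CM it was 0.08 (-0.34 to 0.50), a value whose sign turned with total counts in place of TMM. The last 1075 bases of Nr1d1 overlap the end of Thra, a thyroid hormone receptor gene on the opposite strand. Thra itself was at 251 to 266 CPM in control medium, 218 to 297 CPM with shControl-CM and 192 to 223 CPM with shBrca2-CM. Thra had no call either, but with shBrca2-CM it was at -0.33 (edgeR adjusted p = 0.0648) and missed only the fold threshold. Whether counting used strand is not given in the sources used here, so reads from the shared stretch cannot be assigned with certainty.

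Nr1d2 (chr14:18204056-18239106) was counted 43 and 20 times in control medium, 17, 2 and 2 times with shControl-CM, and 8, 6 and 6 times with shBrca2-CM. As levels these were 7.47 and 4.30 CPM, then 10.9, 1.93 and 1.36 CPM, then 11.6, 7.47 and 5.33 CPM. A single library, shControl-CM replicate 1, stood apart from the other libraries of its group. With it, Nr1d2 had a log2 fold change of -0.24 against control medium (edgeR adjusted p = 0.799). Without it, the value was -1.88 (edgeR adjusted p = 0.0443), in a fit that called 42.8% of all genes.

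DBP and TEF are activators of D-box genes, and Dbp is a direct target of CLOCK and BMAL1. Dbp (chr7:45705100-45710203) was at 71.3 and 90.1 CPM in control medium, 36.5, 36.7 and 45.5 CPM with shControl-CM, and 60.8, 33.6 and 47.0 CPM with shBrca2-CM. Both control libraries were above every conditioned medium library, and the conditioned media overlapped. Dbp fell by 1.03 on the log2 scale with shControl-CM (2.04-fold, standard error 0.20, edgeR adjusted p = 0.00394) and by 0.78 with shBrca2-CM (1.72-fold, standard error 0.19, edgeR adjusted p = 7.51e-04). These calls were kept in all 12 alternative fits of each comparison, where the log2 fold change ranged from -1.17 to -0.86 and from -0.97 to -0.60. The last 741 bases of Dbp overlap the end of Sphk2, a sphingosine kinase gene on the opposite strand, and Sphk2 moved the other way. Sphk2 was at 44.0 and 47.3 CPM in control medium, 84.1 to 96.4 CPM with shControl-CM and 72.3 to 98.3 CPM with shBrca2-CM, and rose by 0.95 and 0.90 on the log2 scale (edgeR adjusted p = 0.00302 and 3.22e-05). The part of shared reads in either change was not tested.

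Tef (chr15:81802673-81826863) was at 181 CPM in both control libraries, 110, 118 and 188 CPM with shControl-CM, and 137, 132 and 134 CPM with shBrca2-CM. The shBrca2-CM libraries were close to each other and below control medium, whereas shControl-CM replicate 3 lay above all others. With shBrca2-CM the log2 fold change of -0.43 had an edgeR adjusted p of 0.0185 but did not reach the 0.5 required for a call. With shControl-CM it was -0.39 (edgeR adjusted p = 0.200). Without shControl-CM replicate 3 this became -0.67 (edgeR adjusted p = 0.00431). With a replicate block it was -0.67 (edgeR adjusted p = 3.47e-04), and scaled by total counts it was -0.51 (edgeR adjusted p = 0.0830). All of these were past all thresholds.

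**Figure D3:**
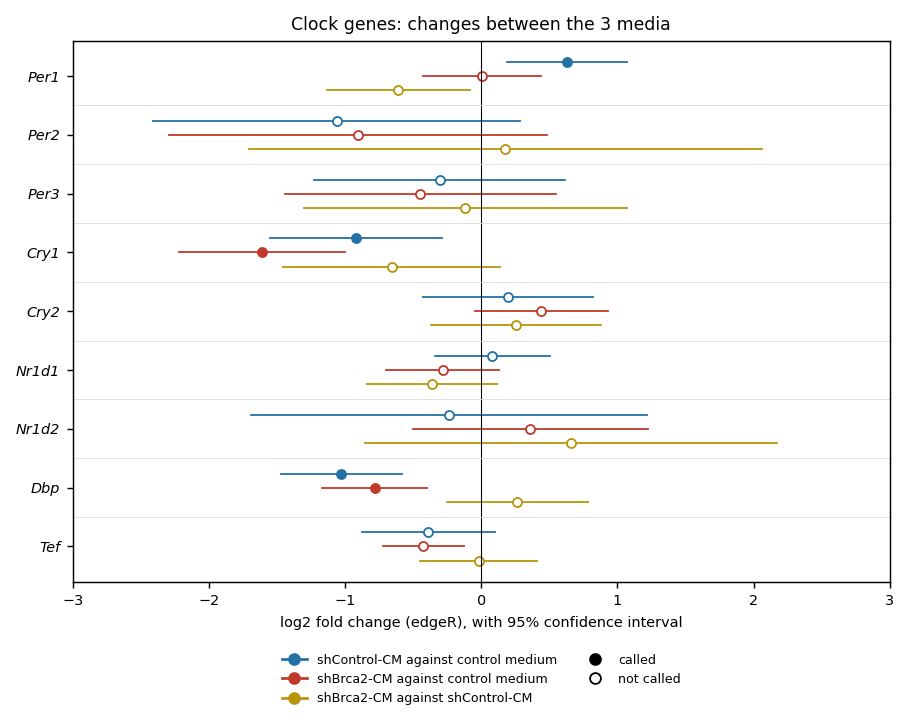
Log2 fold change of each clock gene (horizontal axis, edgeR, points) with its 95% confidence interval (lines) in the 3 comparisons, with filled points for called genes. Cry1 and Dbp are called lower than control medium with both conditioned media, Per1 is called higher with shControl-CM, and between the conditioned media no gene is called. The intervals of Per2, Per3 and Nr1d2, genes of low counts, are wide.

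The comparison of shBrca2-CM with shControl-CM asks whether the clock genes differed between media of organoids with and without the shRNA against Brca2. Each medium came from a transduced and selected organoid culture. An effect of Brca2 therefore cannot be told apart from other differences between these cultures. Intervals and p-values describe the spread between culture domes. With edgeR 0 of 9 members were called, and 1 (Per1) had an unadjusted p under 0.05; DESeq2's likelihood ratio test called 0 of the 6 members for which it gave an adjusted p, and gave none for Per2, Per3 and Nr1d2. Over all 11035 genes tested, 3.13% were called, 1.58% higher and 1.55% lower, and 13.4% had an unadjusted p under 0.05. The members' median log2 fold change was -0.02, beside 0.03 over all genes, and 4 members were above 0 and 5 below. Per1 was lower with shBrca2-CM in all libraries (log2 fold change -0.61, 95% confidence interval -1.14 to -0.08, edgeR adjusted p = 0.287), and so was Nr1d1 (-0.36, -0.84 to 0.12, edgeR adjusted p = 0.531). The groups did not overlap for these 2 members, as was the case for 19.6% of all genes, 9.94% higher and 9.65% lower. For Tef the interval was -0.45 to 0.41 and for Dbp -0.25 to 0.78, so differences of more than about that size would have been outside the error. For Per1, Per2, Per3, Cry1 and Nr1d2 the intervals reached past 1 on the log2 scale in at least 1 direction, so a difference of that size lay within the error. Per1 was weaker without shBrca2-CM replicate 2 (-0.38, edgeR adjusted p = 0.65) and in thinned libraries (-0.38, 0.606). Nr1d2 was at 0.66 in the main fit (edgeR adjusted p = 0.751) and at 0.13 without shControl-CM replicate 3 (0.954). Without shControl-CM replicate 1, Per1 (-0.73, edgeR adjusted p = 0.0946) and Nr1d2 (2.20, edgeR adjusted p = 0.0731) were called. In that fit 9.09% of all 10741 genes tested were called, in place of 3.13%.

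The other genes of the clock were taken from a list of 22, of which 20 were analysed here. Between the conditioned media 0 of the 18 genes tested were called by edgeR, and 1 (Hlf) had an unadjusted p under 0.05. DESeq2's likelihood ratio test called 0 of the 13 genes for which it gave an adjusted p, and Hlf was not among these. With shControl-CM against control medium 5 of 20 were called, 3 higher (Nfil3, Csnk1d and Usp2) and 2 lower (Rorb and Klf10). With shBrca2-CM 8 of 19 were called, 3 higher (Nfil3, Csnk1d and Usp2) and 5 lower (Arntl, Rorb, Wee1, Noct and Klf10). These are 25% and 42.1% of the genes tested, beside the 37.1% and 37.8% of all genes given above. With all 8 libraries in 1 fit, 6 genes were called with each conditioned medium, beside 40% (shControl-CM) and 32.4% (shBrca2-CM) of all genes. Some genes were left out of the wider list after its values were known, so these shares describe an edited list.

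Nfil3, the repressor of D-box genes, moved opposite to the activator Dbp. It was at 36.5 and 29.9 CPM in control medium, 80.1, 90.8 and 97.1 CPM with shControl-CM, and 70.9, 73.4 and 86.1 CPM with shBrca2-CM. Every conditioned medium library was above both control libraries. Nfil3 rose by 1.42 on the log2 scale with shControl-CM (2.67-fold, standard error 0.19, edgeR adjusted p = 5.7e-04) and by 1.22 with shBrca2-CM (2.33-fold, standard error 0.19, edgeR adjusted p = 2.18e-07), in all 12 alternative fits of each. Hlf, the other D-box activator of the list, was counted 2 to 6 times per shControl-CM library and 5, 4 and 16 times with shBrca2-CM. Between the conditioned media its log2 fold change was 1.59 (95% confidence interval 0.26 to 2.92, edgeR adjusted p = 0.265). Against control medium Hlf with shBrca2-CM was at 0.77 (edgeR adjusted p = 0.138), and it was called only without shBrca2-CM replicate 2 (1.05, edgeR adjusted p = 0.0569) or control medium replicate 1 (1.13, 0.0591).

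Of the activators, Arntl was at 20.9 and 15.5 CPM in control medium, 21.8, 16.4 and 10.2 CPM with shControl-CM, and 8.68, 12.4 and 6.21 CPM with shBrca2-CM. The shBrca2-CM libraries were below both control libraries, and the shControl-CM libraries lay around them. With shBrca2-CM Arntl fell by 1.05 on the log2 scale (2.06-fold, standard error 0.34, edgeR adjusted p = 0.00989), and its value with shControl-CM was -0.18 (95% confidence interval -0.93 to 0.58, edgeR adjusted p = 0.711). The difference between the conditioned media, -0.83, was not past the threshold (95% confidence interval -1.73 to 0.08, edgeR adjusted p = 0.430). The decrease with shBrca2-CM was called in 10 of 12 alternative fits. It was not called without shBrca2-CM replicate 3 (-0.77, edgeR adjusted p = 0.133) or with the replicate block. Arntl2, its paralog, was not called in any comparison. It was counted 9, 7 and 10 times with shBrca2-CM and 10, 6 and 5 times with shControl-CM, with 0.97 on the log2 scale between them (edgeR adjusted p = 0.375).

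The ROR receptors activate Arntl, in opposition to the REV-ERB receptors. Rorb was counted 92 and 57 times in control medium, 7, 3 and 9 times with shControl-CM and 5, 3 and 10 times with shBrca2-CM, and fell by 1.61 and 1.05 on the log2 scale (edgeR adjusted p = 0.00979 and 0.0202). Both calls were lost without control medium replicate 1 (edgeR adjusted p = 0.138 and 0.124) and in thinned libraries (0.293 and 0.118), and the call with shBrca2-CM also without shBrca2-CM replicate 2 (0.130) and in DESeq2's likelihood ratio test (adjusted p = 0.105). Rora had at most 2 counts in any conditioned medium library.

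Among the listed kinases and ubiquitin ligase parts that set the stability of PER and CRY proteins, Csnk1d, which encodes casein kinase 1 delta, was the only gene called. It was at 175 and 176 CPM in control medium, 293, 285 and 322 CPM with shControl-CM, and 262, 249 and 274 CPM with shBrca2-CM. The 3 groups did not overlap. Csnk1d rose by 0.77 on the log2 scale with shControl-CM (1.70-fold, edgeR adjusted p = 0.00402) and by 0.58 with shBrca2-CM (edgeR adjusted p = 8.22e-04), in all 12 alternative fits of each. Timeless, with 0.44 and an edgeR adjusted p of 0.0249 for shBrca2-CM, did not reach the fold threshold, which it passed without shBrca2-CM replicate 2 (0.53, edgeR adjusted p = 0.0166) and in thinned libraries (0.51, 0.0546). Csnk1e, Btrc, Fbxw11 and Gsk3b were not called, and Fbxl21 had at most 1 count in any conditioned medium library.

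Output genes and transcription factors linked to the clock moved in both directions. Klf9 was not called in any main fit. With shControl-CM it was at -0.92 (edgeR adjusted p = 0.108), called in 4 of 12 alternative fits. With shBrca2-CM Klf9 was at -0.28 (edgeR adjusted p = 0.437). Between the conditioned media it was at 0.67 (0.554), called in 1 of 13 alternative fits. Usp2, a deubiquitinase gene, was at 28.8 and 25.8 CPM in control medium, 44.8, 56.0 and 36.0 CPM with shControl-CM, and 73.8, 43.6 and 59.5 CPM with shBrca2-CM. It rose by 1.10 on the log2 scale with shBrca2-CM (2.14-fold, edgeR adjusted p = 1.51e-05) and by 0.72 with shControl-CM (edgeR adjusted p = 0.0472). The latter call was lost without shControl-CM replicate 2 (edgeR adjusted p = 0.176) and without either control library (0.171 and 0.249), and in thinned libraries (0.187). Klf10, a zinc finger repressor gene, was at 21.4 and 27.5 CPM in control medium, 3.40 to 7.69 CPM with shControl-CM and 5.79 to 13.7 CPM with shBrca2-CM. Klf10 fell by 2.11 and 1.40 on the log2 scale (edgeR adjusted p = 0.00193 and 2.57e-04), in all 12 alternative fits of each. Wee1, a kinase gene of the cell cycle, fell by 0.90 with shBrca2-CM (edgeR adjusted p = 0.00965), a call lost when all 8 libraries entered 1 fit (edgeR adjusted p = 0.263) and after thinning (0.615). With shControl-CM, where Wee1 was counted 39, 8 and 1 times, the value was -1.11 (edgeR adjusted p = 0.217), and between the conditioned media it was 0.22 (0.938). Over the alternative fits the former ranged from -2.76 to -0.50, called in 1 of 12. The latter ranged from -0.38 to 1.81 and was never called. Noct, a clock-linked phosphatase gene, had a value of -0.53 with shBrca2-CM (edgeR adjusted p = 0.0857), a call that was lost in 7 of 12 alternative fits, among them those without shBrca2-CM replicate 1 (0.253) or 3 (0.381) and without control medium replicate 2 (0.248). The value of Noct with shControl-CM was -0.60 (edgeR adjusted p = 0.324), and between the conditioned media 0.10 (0.961), so neither decrease was shown to differ between the media. With shControl-CM Noct ranged from -1.49 to -0.24 and was called in 1 of 12 alternative fits. Between the conditioned media it ranged from -0.27 to 0.96 and was never called.

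**Figure D4:**
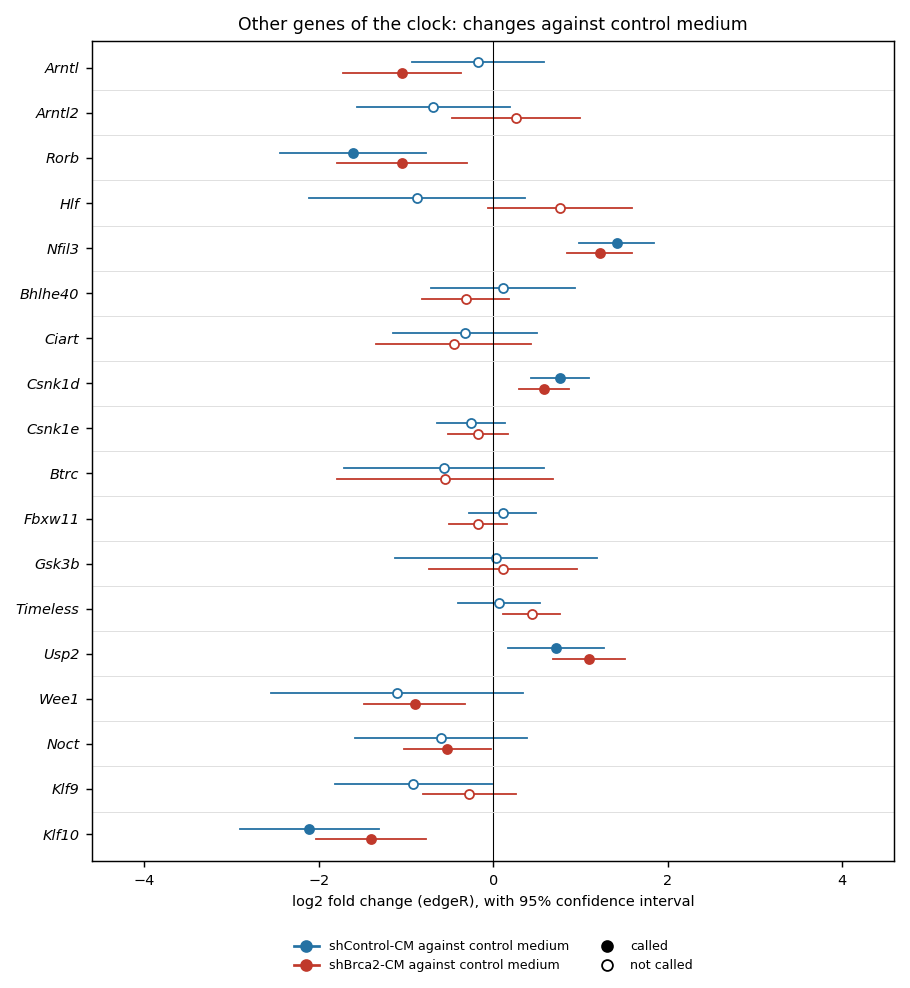
Log2 fold change against control medium (horizontal axis, edgeR, points) with 95% confidence intervals (lines) for the other clock genes that had more than 3 counts in every group, with filled points for called genes. Nfil3, Csnk1d and Usp2 are called higher and Rorb and Klf10 lower with both conditioned media.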

How the data were processed

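RNA of 8 PSC libraries was made into 3′ end libraries by a variation of MARS-seq and read on a NextSeq sequencer. The values that the authors deposited are raw read counts for each gene, neither normalized nor pooled. The submitters' processing notes name bcl2fastq, cutadapt, STAR 2.4.2a, HTSeq, DESeq2 and mm10; the annotation, the use of strand and of molecular identifiers, and by what rule genes entered the count table are not given in the sources used here. The table had 1 further column that matched no sample and was not used. Samples were grouped by title.

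A separate fit over all genes was made for every pair of groups with edgeR 4.0.16 in R 4.3.3 (TMM, genes with at least 10 counts over the libraries fitted, quasi-likelihood test, Benjamini-Hochberg adjustment within the comparison), in place of the study's DESeq2 likelihood ratio test. Genes were called at adjusted p under 0.1, absolute log2 fold change over 0.5 and mean normalized count over 5. The scripts were tested on simulated data. Levels are CPM normalized by TMM over all 8 libraries. Depth limits the precision of genes with low counts. Counting intervals are exact binomial (95%). Members and gene lists were chosen with earlier results of these data known. Named genes were all members and, of the wider list, those called between the conditioned media, members of counts of 5 or fewer, and up to 3 per role with the largest changes against control medium; further genes were picked once their values had been seen. Some genes are not reported here and were left out of the wider list after its values were known. The alternatives included DESeq2 1.42.0, its size factors or total counts, no filter, all groups in 1 fit, a replicate block, thinned libraries, a stricter call rule and each library left out in turn.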

Additional observations from a re-analysis of the deposited data

How the results depend on the processing

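Between the conditioned media, the number of members called stayed at 0 under each alternative that used all libraries, and was 0 to 2 when each library was left out in turn (0 to 1 for the wider list). With shControl-CM against control medium it was 1 in thinned libraries and 1 at an adjusted p under 0.05 with an absolute log2 fold change over 1, and 1 to 4 without 1 library; the wider list gave 3 genes under each of the first 2 settings and 3 to 8 without 1 library, in place of 5 (3 without control medium replicate 1 and 8 without shControl-CM replicate 1). With shBrca2-CM against control medium the stricter rule left 1 member and 5 genes of the wider list. The wider list gave 6 genes, in place of 8, with DESeq2's likelihood ratio test, with all groups in 1 fit, with the block and in thinned libraries. Fewer counts and fewer libraries remain in the thinned and left-out fits; for the other changes the cause was not tested.

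Signs turned only for members near 0 or with few counts. Between the conditioned media, Tef turned from -0.02 to 0.10 with total counts, 0.0050 with a replicate block and 0.14 in thinned libraries, and ranged from -0.20 to 0.25 without 1 library; Per2 ranged from -0.24 to 0.63 and Per3 from -0.35 to 0.13. With shControl-CM, Per3 was 1.04 in thinned libraries, Nr1d1 -0.033 with total counts and -0.075 in thinned libraries, Nr1d2 0.14 with the block and -1.88 to 0.26 without 1 library, and Cry2 -0.038 to 0.35. With shBrca2-CM, Per3 was 0.78 in thinned libraries, and Per1 was -0.019 without a filter, -0.0025 with all 8 libraries in 1 fit, -0.11 with the block and -0.15 to 0.23 without 1 library. The median over all genes shifted with total counts by 0.11 between the conditioned media and by -0.12 with shControl-CM against control medium.

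Same-numbered libraries of the conditioned media did not deviate together (correlations of deviations -0.07, 0.03 and 0.16 over 6224 genes), so the numbers were not taken as pairs. With the replicate block, 0, 4 and 2 members were called in the 3 comparisons in place of 0, 3 and 2. The member added is Tef with shControl-CM (-0.67, edgeR adjusted p = 3.47e-04), and the decrease of Arntl with shBrca2-CM was not called (edgeR adjusted p = 0.145). Control medium has no replicate 3, so under the block shControl-CM replicate 3 has no partner. Without that library Tef was likewise at -0.67. Per2 fell below the count minimum in thinned libraries and, between the conditioned media, without shBrca2-CM replicate 2 or shControl-CM replicate 1, and DESeq2 gave no adjusted p for Per2, Per3 and Nr1d2 between the conditioned media.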

Other observations

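Over all genes, the chi-square per degree of freedom between shControl-CM libraries was 2.99 for replicates 1 and 2, 4.21 for 2 and 3 and 8.35 for 1 and 3. It was 1.65 to 1.94 among the shBrca2-CM libraries and 6.64 between the control medium libraries. This measure grows with depth, which was on average lowest with shBrca2-CM and highest in control medium. Which shControl-CM library stood apart depended on the gene. Replicate 3 was the highest for Tef (188 CPM, against 110 and 118) and the lowest for Bhlhe40 (20 counts, against 51 and 44). Replicate 1 was the highest for the genes that follow, which were chosen for that. Wee1 was counted 39, 8 and 1 times in its 3 libraries, Noct 60, 12 and 16 times, Klf9 31, 9 and 9 times, Gsk3b 19, 4 and 4 times and Nr1d2 17, 2 and 2 times, with library totals of 1592302, 1093609 and 1624392 counts.

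For the 3 members with the highest mean level, the genes closest in pattern were found by the root mean square difference of mean-centred log2(CPM + 1) over the 8 libraries, among 12116 genes. Closest to Tef were Itm2c (0.0970), Slc25a45 (0.101) and Ppp2r1a (0.102). Closest to Dbp were Pank4 (0.122), Gatd3a (0.142) and Iars2 (0.143), and closest to Per1 were Lgr4 (0.109), Slc46a1 (0.125) and Ap5s1 (0.148).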
